A study of Mus musculus with 6 samples.

Results

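The 40 genes described here encode the canonical Wnt machinery that acts on the secretion of the ligand, in the cytoplasm and in the nucleus. They were chosen by gene symbol, and all 40 were found among the 53342 genes of the deposited table. Every member also passed the filter on low counts, which left 24534 genes for testing. By role they comprise 2 genes of Wnt secretion, 3 Dishevelled genes, 2 Frat genes, 5 scaffolds of the destruction complex, 2 GSK3 kinases, 6 casein kinases 1, 2 subunits of the ubiquitin ligase for beta-catenin, 2 tankyrases, beta-catenin with its inhibitor, 4 TCF/LEF factors, 5 cofactors and corepressors of those factors, and 5 feedback or surface-level inhibitors.

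In canonical Wnt signaling, beta-catenin is made continuously and destroyed continuously. Axin and APC hold it in a cytoplasmic destruction complex, where casein kinase 1 and GSK3 phosphorylate it so that a ubiquitin ligase can mark it for the proteasome. When a secreted Wnt ligand engages its receptors, Dishevelled proteins draw Axin to the membrane, the complex is held back, and beta-catenin enters the nucleus to act with TCF/LEF factors. In teeth the pathway is known for its part in tooth formation and in odontoblasts, the cells that lay down dentin, and Axin2 is both a scaffold of the complex and a widely used readout of the pathway.

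Pulp RNA was sequenced from 3 WT and 3 Mmp13-/- samples of male mice aged 3 months. WT mice were C57BL/6, and Mmp13-/- mice were homozygous for a deficiency of the collagenase MMP13 on the same C57BL/6 background. No agent was given to either genotype. Samples carry the numbers 2, 4 and 5 in WT and 1, 2 and 6 in Mmp13-/-, and values in every sample are given in this order. The study's methods call them independent biological replicates, and whether a sample pooled several animals is not given in the sources used here. The protocols in the labels name molars for both genotypes and a column kit for RNA extraction, although among the sample titles only those of WT repeat the tooth, whereas the study's methods name incisors and a phenol-based reagent. The deficiency is not restricted to a cell type, so that a change in pulp cells and a change in which cells were collected cannot be told apart, nor can fewer cells of a type and less RNA per cell.

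Promoters of 4 members are shown because the GSK3 genes carry the core letters that TCF/LEF proteins are known to bind, and because Axin2 and Wls, which lack them in these windows, differed in the direction of their change. RefSeq windows on GRCm38.p6 run from 250 bases before to 50 bases after a transcription start, and capitals mark CTTTGA or its reverse complement TCAAAG, the only motif searched. The window of Gsk3a, encoding GSK3 alpha, lies on the minus strand at chr7:25237802-25238101, with its match at -157 from the start. That of Gsk3b, encoding GSK3 beta, lies on the plus strand at chr16:38088751-38089050, with its match at -77. The windows of Axin2, at chr11:108920099-108920398, and of Wls, at chr3:159839400-159839699, are both on the plus strand and hold no match.
Gsk3a: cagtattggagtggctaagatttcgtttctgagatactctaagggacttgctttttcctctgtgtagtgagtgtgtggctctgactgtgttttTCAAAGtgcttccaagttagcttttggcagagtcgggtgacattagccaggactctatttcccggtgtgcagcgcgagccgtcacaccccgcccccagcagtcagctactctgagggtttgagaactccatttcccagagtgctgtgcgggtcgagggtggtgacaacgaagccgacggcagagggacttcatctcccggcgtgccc
Gsk3b: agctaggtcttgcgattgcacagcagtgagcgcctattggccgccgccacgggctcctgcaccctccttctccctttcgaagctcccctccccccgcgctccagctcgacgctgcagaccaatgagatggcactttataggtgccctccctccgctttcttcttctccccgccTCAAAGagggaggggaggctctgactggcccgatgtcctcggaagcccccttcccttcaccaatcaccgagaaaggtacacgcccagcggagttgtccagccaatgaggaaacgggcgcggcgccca
Axin2: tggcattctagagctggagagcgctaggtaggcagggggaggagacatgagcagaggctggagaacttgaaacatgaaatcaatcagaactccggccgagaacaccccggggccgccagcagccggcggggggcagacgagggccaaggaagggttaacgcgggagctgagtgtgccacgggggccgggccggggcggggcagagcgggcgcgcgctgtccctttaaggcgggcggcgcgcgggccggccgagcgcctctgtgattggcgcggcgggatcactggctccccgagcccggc
Wls: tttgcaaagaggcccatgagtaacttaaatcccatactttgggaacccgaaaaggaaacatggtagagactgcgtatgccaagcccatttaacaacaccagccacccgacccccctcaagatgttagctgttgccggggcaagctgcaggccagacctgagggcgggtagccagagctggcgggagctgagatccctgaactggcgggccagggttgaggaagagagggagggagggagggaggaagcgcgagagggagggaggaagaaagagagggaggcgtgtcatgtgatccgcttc

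The promoter table held 46 windows for 29 of the 40 members. The motif occurred on either strand in 3 of these windows (6.52%), against 16.0% of all 32851 windows, and the third was an alternative start of Lef1. Member windows were rich in G and C, with a median of 64.7% against 52.7% over all windows, and held a median of 21 CpG dinucleotides against 7. A match is a run of letters and not a measured site.

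Total counts ranged from 28442936 to 29980236 in WT and from 21561420 to 26547121 in Mmp13-/-. The targeted gene, Mmp13, had 827 to 1140 estimated counts in WT and 10.2, 32.9 and 40.4 in Mmp13-/- (log2 fold change -4.96, standard error 0.46, adjusted p = 7.67e-05, edgeR). Odontoblast markers were present in every library, with a summed level of 1510000 to 1692000 normalized counts in WT and 481700 to 635500 in Mmp13-/-, and 4 of the 12 genes fell while 4 rose. Col1a1 and Col1a2, which both fell, made up most of this sum, and without them it was 60210 to 105200 in WT and 86360 to 126200 in Mmp13-/-. Several measures of library make-up moved with the genotype. Major satellite repeat genes held 0.031% to 0.0414% of counts in WT and 5.54%, 9.75% and 43.6% in Mmp13-/-, highest in sample 6. Odorant and vomeronasal receptor genes, which pulp is not known to use, stood at 0.137 to 0.255 counts per kilobase in WT and at 1.63, 1.88 and 4.9 in Mmp13-/-. Of the marker lists for other cell types, all 7 B cell genes, all 9 granulocyte genes, all 5 erythroid genes and all 7 proliferation genes were higher in Mmp13-/-, and 6 of 8 skeletal muscle genes were lower. The summed level went from 205 to 399 up to 1041 to 1575 for B cells, from 149 to 188 up to 419 to 431 for T cells, from 3650 to 7667 up to 19420 to 50830 for granulocytes, and from 2575000 to 3016000 down to 690900 to 1530000 for skeletal muscle. In the other lists 5 of 7 T cell genes and 3 of 7 genes of the joint macrophage and osteoclast list rose, and 5 of 10 mesenchymal genes fell while 3 rose. The nociceptor gene Scn10a in the nerve list was at 0 in every WT library and at 18.9, 29.9 and 126 normalized counts in Mmp13-/-, highest in sample 6. Whether these shifts had a part in the values below was not tested.

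Genes of the Wnt machinery were mostly lower in Mmp13-/- pulp. Of the 40 members, 25 fell and 3 rose at an adjusted p under 0.05, and 12 did not pass (edgeR's quasi-likelihood test, adjusted over the whole table by the Benjamini-Hochberg method). This is 70.0% of the members called, against 51.6% of all genes tested, and 62.5% called lower against 24.3%. The 3 that rose were Wls, Csnk1g3 and Cxxc4, where 27.3% of all genes rose. A change over 2-fold was passed by 16 members (30.1% of all genes). Of these, 15 were lower, where the background was 9.68%, and Cxxc4 was higher, where it was 20.4%. The median log2 fold change of the members was -0.74, with a range from -1.86 for Bcl9l to 1.02 for Cxxc4, whereas the median over all genes was 0.10. In 26 members every Mmp13-/- sample lay below every WT sample, and in 4 every one lay above, or 75.0% of members without overlap. Over all genes 60.9% did not overlap, 29.1% lower and 31.8% higher. The median depends on the scaling between libraries, and with upper-quartile factors it was -0.53 while that of all genes moved to 0.32. With those factors 9 members were lower and 2 higher by over 2-fold, in place of 15 and 1.

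**Figure D1:**
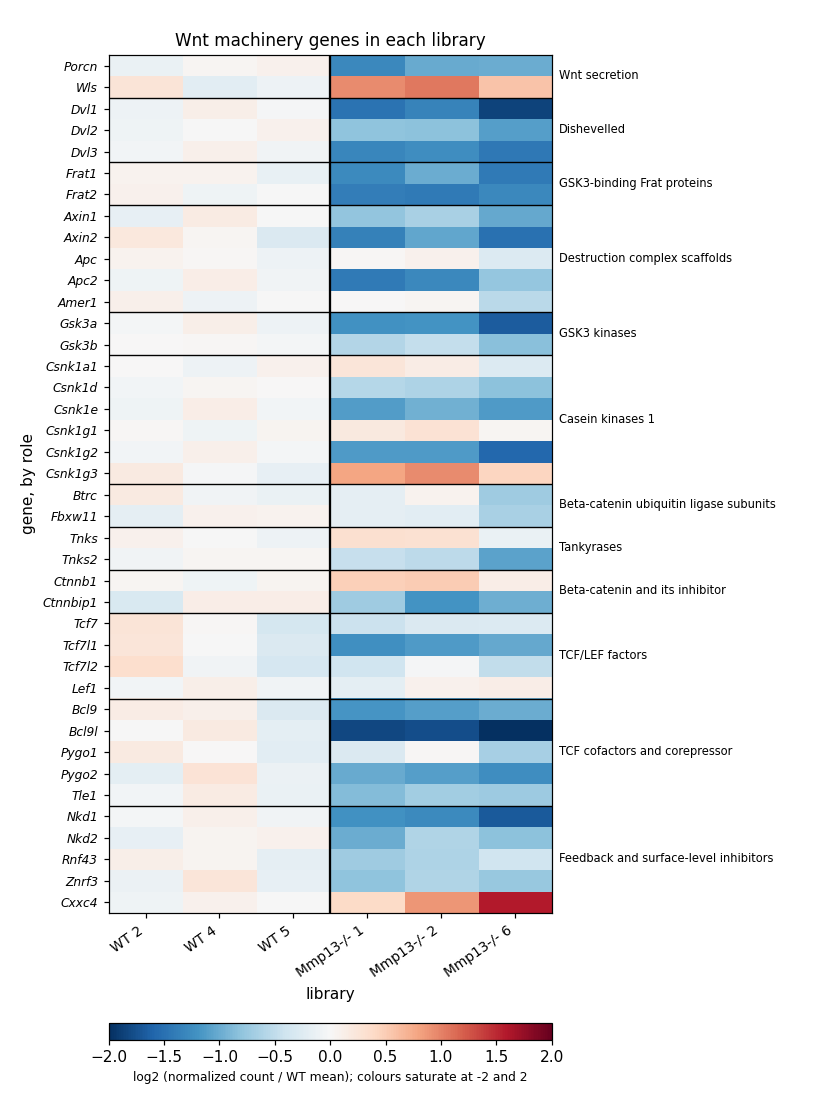
Normalized count of each of the 40 genes in each of the 6 libraries (columns) as log2 of its ratio to the WT mean, with genes (rows) ordered by role and colours saturating at -2 and 2. Blue rows fill most of the Mmp13-/- side, with 26 genes below every WT sample, and Wls, Csnk1g3, Ctnnb1 and Cxxc4 stand above.

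Size and sign of the changes followed the GC content of the transcripts. The log2 fold changes of the 40 members and the GC content of their longest transcripts had a Spearman's rho of -0.86, and 24492 genes tested had -0.51, both given as descriptions because genes share libraries and are not independent. All 16 members with at least 55% GC fell, with a median log2 fold change of -1.13 against -0.74 for all genes of that range. Of the 8 members under 45% GC, 1 fell and 3 rose, with a median of 0.00 against 0.81. Members were therefore below all genes of like GC content in each range, which were not matched for abundance. They were also richer in GC, with a median of 53.2% against 49.1%. The share of all genes called lower or higher within each range was not counted, so the counts of members there stand without a background.

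Each library was then corrected for its own trend with GC content, in 2 ways that differ only in the level. In the first the overall level set by the scaling factors was kept, and in the second the genes used for the trend were brought to the same median in every library. With the level kept, 25 members fell and none rose, beside 23.1% of all genes lower and 17.4% higher. The median of the members was then -0.53 against -0.06 for all genes. With equal medians 11 fell and 3 rose, beside 10.9% lower and 26.4% higher over all genes, and the median was -0.19 against 0.28. The members stood 0.84 below the median of all genes on the log2 scale without a correction and 0.47 below it with either. The distance is the same with either because the corrections differ only in the level. All genes here means every gene tested, whatever its abundance, and members were not compared with genes of like abundance. Without correction and with each correction 8 members fell, namely Axin2, Bcl9l, Csnk1g2, Dvl1, Dvl3, Gsk3b, Nkd1 and Tnks2. The share of all genes that fell in every one of these fits was not counted. It cannot exceed the 10.9% of the fit with equal medians. Over 2-fold, 5 members passed with the level kept (Bcl9l, Btrc, Gsk3b, Nkd1 and Tnks2, where the background was 19.8%) and none with equal medians (20.1%). In the account of single genes below, a corrected value is the one with the level kept, and the value with equal medians is higher for each of the 40.

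**Figure D2:**
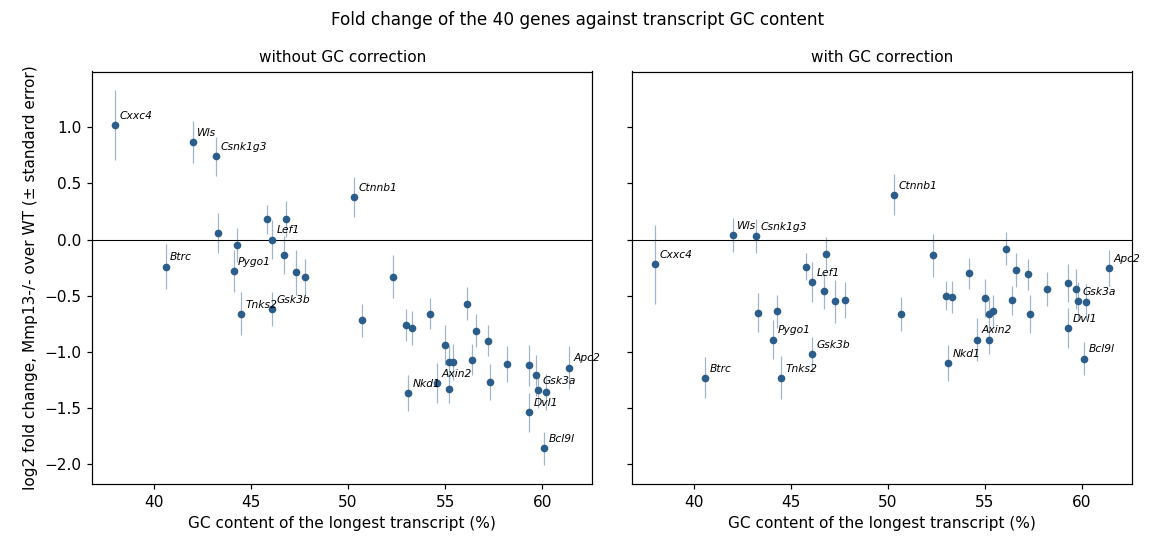
Log2 fold change of the 40 genes (Mmp13-/- over WT, points, with standard error bars) against the GC content of the longest transcript in percent, without correction (left) and with the GC correction that keeps the level (right). The slope seen on the left, where Spearman's rho is -0.86, is gone on the right, where it is -0.05, and Ctnnb1 is the highest point there.

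The 2 genes of Wnt secretion moved apart. Porcn (ENSMUSG00000031169), the acyltransferase that attaches the lipid Wnt ligands need to leave the cell, had 646, 726 and 748 normalized counts in WT and 289, 351 and 355 in Mmp13-/-. The genotypes did not overlap, and Porcn was 2.13-fold lower (log2 fold change -1.09, standard error 0.15, adjusted p = 0.000312, edgeR). Wls (ENSMUSG00000028173), the carrier that takes the lipid-bearing ligand to the surface, had 2260, 1633 and 1760 normalized counts in WT and 3616, 3934 and 2797 in Mmp13-/-. It rose by 0.87 on the log2 scale (standard error 0.19, adjusted p = 0.00339, edgeR). The GC correction left Porcn lower at -0.66 with the level kept but not with equal medians, at -0.31 (adjusted p = 0.0955, edgeR). It took Wls to 0.04 with the level kept and to 0.38 with equal medians, where it passed. Transcripts of Porcn hold 55.2% GC and those of Wls 42.0%.

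All 3 Dishevelled genes fell. Dvl1 (ENSMUSG00000029071), which GENCODE M21 places on the plus strand of chromosome 4 (GRCm38, 155847402 to 155859303), had 4713, 5509 and 4990 normalized counts in WT and 1824, 2003 and 1403 in Mmp13-/-. It was 2.91-fold lower (log2 fold change -1.54, standard error 0.17, adjusted p = 0.000154, edgeR), with a wide gap between the genotypes. Dvl3 had 1267, 1413 and 1256 in WT and 531, 552 and 486 in Mmp13-/-, and was 2.51-fold lower. Dvl2 went from 1674 ± 92.9 (SD, n = 3) to 897 ± 97.9, a log2 fold change of -0.90. After the GC correction Dvl1 and Dvl3 were still lower, at -0.79 and -0.89, and Dvl2 at -0.31 did not pass (adjusted p = 0.106, edgeR). Dvl1 was also the most abundant of the family, at 1010 ± 80.8 normalized counts per kilobase of exon in WT against 266 ± 14.7 for Dvl2 and 205 ± 13.7 for Dvl3.

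The Frat proteins bind GSK3 and keep it from Axin. Frat1 had 351, 354 and 303 normalized counts in WT and 139, 169 and 126 in Mmp13-/-. Frat2, its neighbour on chromosome 19, had 342, 303 and 319 in WT and 123, 120 and 131 in Mmp13-/-. Both fell by over 2-fold, at log2 fold changes of -1.21 (adjusted p = 0.00045, edgeR) and -1.36 (adjusted p = 0.00017, edgeR), and in neither did the genotypes overlap. Transcripts of both are near 60% GC, and the corrected values were -0.44 for Frat1, which no longer passed, and -0.56 for Frat2, which did with the level kept but not at -0.22 with equal medians.

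Among the scaffolds of the destruction complex, Axin1, Axin2 and Apc2 fell, and Apc and Amer1 did not pass. Axin2 (ENSMUSG00000000142) had 901, 799 and 633 normalized counts in WT and 303, 380 and 275 in Mmp13-/-, which placed the highest Mmp13-/- sample well below the lowest WT sample. Axin1, the constitutive scaffold, had 1194, 1489 and 1323 in WT and 769, 850 and 660 in Mmp13-/-, and its log2 fold change of -0.81 (adjusted p = 0.00172, edgeR) was smaller than the -1.28 of Axin2 (adjusted p = 0.000415, edgeR). Axin2 stayed lower after the GC correction, at -0.89 and, with equal medians, at -0.56, whereas Axin1 was at -0.27 and 0.07 and passed in neither. Apc2, the less studied relative of Apc, had 557, 647 and 564 in WT and 220, 241 and 346 in Mmp13-/-. Its transcripts have the highest GC content of the members, 61.4%, and its log2 fold change went from -1.14 to -0.25 after the correction (adjusted p = 0.224, edgeR). Apc, the large scaffold that carries beta-catenin within the complex, stood at 3117 ± 185 normalized counts in WT and at 3010 ± 384 in Mmp13-/- (SD, n = 3). Its log2 fold change of -0.05 became -0.64 with the GC correction and then passed (adjusted p = 0.00784, edgeR). Amer1, a membrane-bound partner of Apc, was at -0.14 without the correction, at -0.46 with the level kept, where it passed (adjusted p = 0.0429, edgeR), and at -0.13 with equal medians, where it did not.

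The 2 GSK3 kinases, which phosphorylate beta-catenin for destruction, both fell. Gsk3a (ENSMUSG00000057177) had 1601, 1784 and 1531 normalized counts in WT and 706, 719 and 516 in Mmp13-/-. Gsk3b (ENSMUSG00000022812) had 4105, 4145 and 3966 in WT and 2718, 2928 and 2279 in Mmp13-/-. Neither gene overlapped between genotypes, and Mmp13-/- sample 6 was the lowest for both. The log2 fold change was -1.34 for Gsk3a (standard error 0.16, adjusted p = 0.000199, edgeR) and -0.62 for Gsk3b (standard error 0.15, adjusted p = 0.0067, edgeR). Their order turned with the GC correction, after which Gsk3a was at -0.55 (adjusted p = 0.0266, edgeR) and Gsk3b at -1.02 (adjusted p = 0.00103, edgeR). With equal medians Gsk3b passed at -0.67 and Gsk3a did not, at -0.21 (adjusted p = 0.186, edgeR). Gsk3a transcripts hold 59.8% GC and those of Gsk3b 46.1%.

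Casein kinases 1 act at several steps, Csnk1a1 as the priming kinase of beta-catenin and the gamma forms on the receptor LRP6. Of the 6 genes, 3 fell, 1 rose and 2 did not pass. Csnk1g2 had 3161, 3520 and 3205 normalized counts in WT and 1500, 1499 and 1104 in Mmp13-/-, a 2.41-fold drop. Csnk1e had 1698, 1963 and 1732 in WT and 826, 923 and 823 in Mmp13-/-, a 2.1-fold drop. In both the genotypes were clearly apart, with log2 fold changes of -1.27 (adjusted p = 0.000256, edgeR) and -1.07 (adjusted p = 0.000236, edgeR). Csnk1d fell from 2919 ± 94.5 (SD, n = 3) to 1849 ± 164, a log2 fold change of -0.66, and the GC correction ended this call at -0.30 (adjusted p = 0.102, edgeR). Csnk1g2 passed under both corrections, and Csnk1e with the level kept, at -0.54, but not at -0.20 with equal medians. Csnk1g3 rose from 492 ± 59.2 to 819 ± 142 (log2 fold change 0.74, adjusted p = 0.00487, edgeR), and it stood at 0.03 after the GC correction and at 0.37 with equal medians, where it passed. Csnk1a1, the most abundant of the family in Mmp13-/- per kilobase of exon, had 6493 ± 391 in WT and 6763 ± 1240 in Mmp13-/- (log2 fold change 0.06, adjusted p = 0.806, edgeR). With the GC correction it was lower at -0.65 (adjusted p = 0.0144, edgeR), and with equal medians it did not pass at -0.31 (adjusted p = 0.0576, edgeR). Csnk1g1 was at 0.18 without and at -0.24 with the correction, and passed in neither.

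The ubiquitin ligase subunits that recognise phosphorylated beta-catenin, Btrc and Fbxw11, did not pass, at log2 fold changes of -0.24 and -0.33. Btrc has the lowest GC content of the members after Cxxc4, 40.6%, and with the GC correction it was 1.23 lower on the log2 scale and passed (adjusted p = 0.000972, edgeR). Fbxw11 also passed there with the level kept, at -0.54 (adjusted p = 0.023, edgeR), but not at -0.21 with equal medians. Tankyrases, which mark Axin for turnover, differed from each other. Tnks2 fell from 7960 ± 341 normalized counts (SD, n = 3) to 5051 ± 1087 (log2 fold change -0.66, adjusted p = 0.0167, edgeR) and by 1.23 after the GC correction. Tnks went from 2344 ± 150 to 2653 ± 437 (log2 fold change 0.18, adjusted p = 0.376, edgeR). Without Mmp13-/- sample 6, Tnks passed as higher at 0.31 (adjusted p = 0.04, edgeR).

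Ctnnb1 (ENSMUSG00000006932), encoding beta-catenin itself, was the most abundant member in both genotypes, at 1890 ± 104 normalized counts per kilobase of exon in WT. It had 10038, 9204 and 10213 normalized counts in WT and 13721, 13990 and 10742 in Mmp13-/-. Every Mmp13-/- sample lay above every WT sample, sample 6 by a narrow margin, but the log2 fold change of 0.38 did not pass (standard error 0.18, adjusted p = 0.101, edgeR). It was 0.50 and passed without sample 6 (adjusted p = 0.00635, edgeR), and 0.55 after subtraction of the receptor gene background (adjusted p = 0.00925, edgeR). With the GC correction it was 0.40 and did not pass with the level kept (adjusted p = 0.103, edgeR), and 0.74 and passed with equal medians. Ctnnbip1, whose product keeps beta-catenin from TCF factors, fell from 1054 ± 177 (SD, n = 3) to 547 ± 91.9, a log2 fold change of -0.94 (adjusted p = 0.00186, edgeR) that was -0.52 after the correction (adjusted p = 0.0313, edgeR) and -0.17 with equal medians, where it did not pass.

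**Figure D3:**
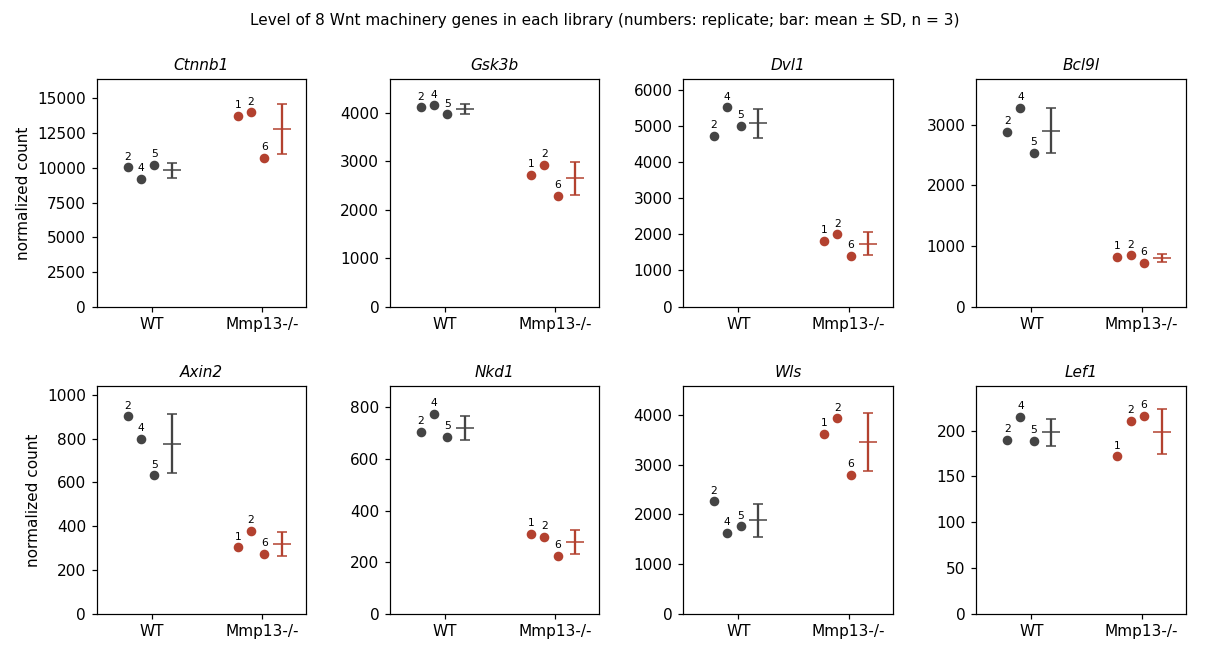
Normalized count (linear axes from 0) of 8 genes in each library, with points numbered by replicate and bars for the mean ± SD of 3 samples per genotype. Gsk3b, Dvl1, Bcl9l, Axin2 and Nkd1 are lower in every Mmp13-/- sample, Ctnnb1 and Wls are higher in every one, and Lef1 overlaps.

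Of the 4 TCF/LEF factors, the DNA-binding partners of beta-catenin, Tcf7l1 fell and the others did not pass. Tcf7l1, which acts mainly as a repressor, had 491, 411 and 337 normalized counts in WT and 177, 188 and 204 in Mmp13-/-, with no overlap (log2 fold change -1.12, standard error 0.18, adjusted p = 0.000733, edgeR). Tcf7 had 301, 255 and 197 in WT and 186, 205 and 208 in Mmp13-/-, and Tcf7l2 had 626, 475 and 393 in WT and 378, 491 and 353 in Mmp13-/-. In both the genotypes overlapped, and WT sample 5 lay among the Mmp13-/- samples, as did WT sample 4 for Tcf7l2. Lef1 had 190, 215 and 189 in WT and 172, 211 and 216 in Mmp13-/-, and its log2 fold change was 0.00 (standard error 0.17). Tcf7l1 did not keep its call under the GC correction, at -0.39 (adjusted p = 0.103, edgeR), whereas Tcf7l2 passed there at -0.55 with the level kept (adjusted p = 0.0419, edgeR). Without WT sample 5 Tcf7 passed as lower, and its log2 fold change over the samples left out in turn lay between -0.56 and -0.26.

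The cofactors Bcl9 and Bcl9l link beta-catenin to the Pygopus proteins, which read histone methylation. Bcl9l (ENSMUSG00000063382), on chromosome 9 from 44482825 to 44511896, had 2880, 3278 and 2532 normalized counts in WT and 824, 843 and 723 in Mmp13-/-. It was 3.63-fold lower, the lowest log2 fold change of the members at -1.86 (standard error 0.15, adjusted p = 4.93e-05, edgeR), and it stayed at -1.06 after the GC correction (adjusted p = 0.00096, edgeR). Bcl9 had 980, 953 and 727 in WT and 390, 414 and 447 in Mmp13-/-, a log2 fold change of -1.09. Pygo2 had 1269, 1759 and 1348 in WT and 727, 678 and 618 in Mmp13-/-, a log2 fold change of -1.11. Neither overlapped, and both passed with the level kept under the GC correction, at -0.64 and -0.44, and not with equal medians, at -0.29 and -0.10. Pygo1 was at -0.28 (adjusted p = 0.238, edgeR) and at -0.89 after the correction (adjusted p = 0.00377, edgeR). Tle1, the Groucho-type corepressor that TCF factors bind in the absence of beta-catenin, fell from 1109 ± 119 (SD, n = 3) to 656 ± 39.4, a log2 fold change of -0.76 that passed at -0.50 with the level kept and did not at -0.15 with equal medians.

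Of the 5 feedback and surface-level inhibitors, 4 fell and Cxxc4 rose. Nkd1 (ENSMUSG00000031661), which binds Dishevelled and is itself induced by Wnt signaling, had 705, 774 and 685 normalized counts in WT and 311, 298 and 224 in Mmp13-/-. It was 2.59-fold lower with no overlap (log2 fold change -1.37, standard error 0.16, adjusted p = 0.000176, edgeR), and it was at -1.10 after the GC correction. Nkd2 fell from 1105 ± 106 (SD, n = 3) to 637 ± 87.1, a log2 fold change of -0.79 that passed at -0.51 with the level kept and did not at -0.17 with equal medians. Rnf43 and Znrf3, membrane ubiquitin ligases that clear Frizzled receptors, were at -0.57 (adjusted p = 0.0106, edgeR) and -0.72 (adjusted p = 0.00357, edgeR). After the correction Rnf43 was at -0.08 and did not pass, and Znrf3 was at -0.66 and did, but not at -0.31 with equal medians (adjusted p = 0.0942, edgeR). Cxxc4, an inhibitor of Dishevelled, was the least abundant member, at 4.27 ± 0.243 normalized counts per kilobase of exon in WT. It had 54.1, 60.6 and 57.1 normalized counts in WT and 74.4, 106 and 172 in Mmp13-/-, highest in sample 6. A background at the receptor gene rate would give 59.7% of its counts in that sample. Its log2 fold change of 1.02 (adjusted p = 0.0197, edgeR) was 0.51 after subtraction of that background (adjusted p = 0.132, edgeR), 0.65 without sample 6 (adjusted p = 0.0546, edgeR) and -0.22 with the GC correction, and passed in 2 of the 6 fits that left out a library.

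**Figure D4:**
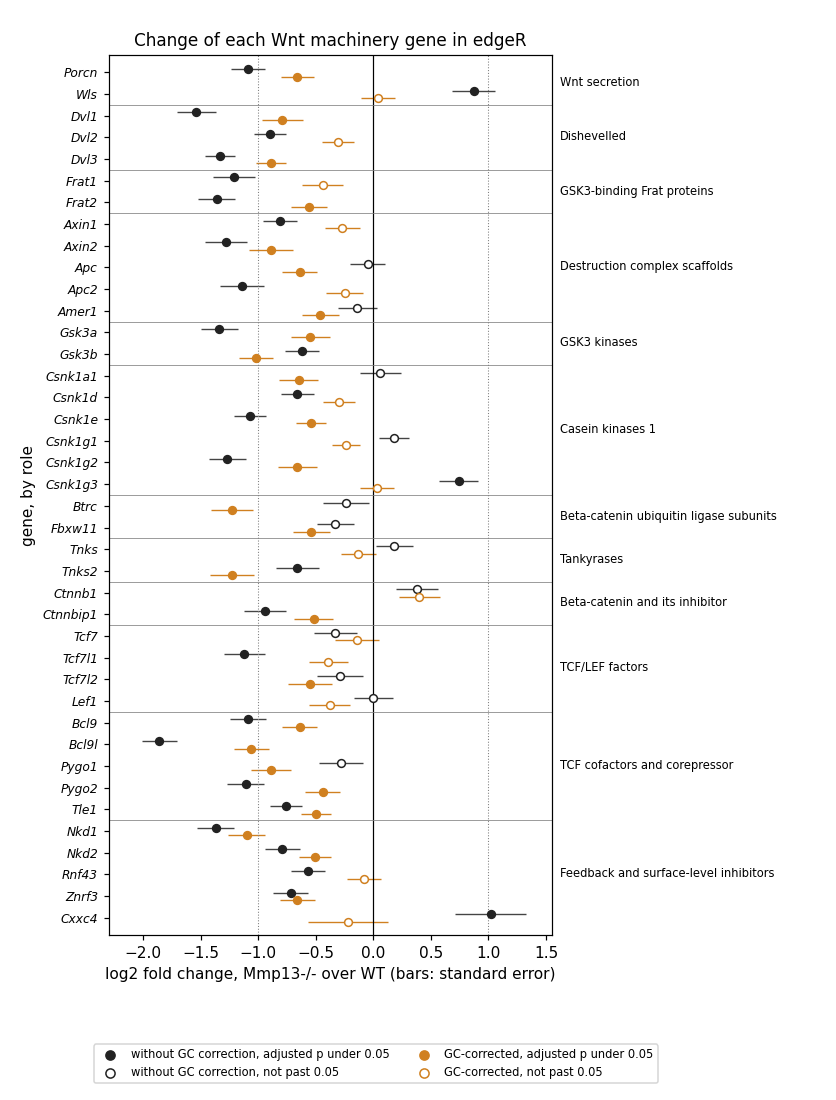
Log2 fold change of each gene (Mmp13-/- over WT) with its standard error, without the GC correction (black) and with the correction that keeps the level (orange), filled where the adjusted p of edgeR is under 0.05. The 25 filled black points left of zero include all Dishevelled, Frat and GSK3 genes, and the correction moves Btrc, Gsk3b and Tnks2 to the left and most GC-rich genes to the right.

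All 25 genes that fell also passed as lower without Mmp13-/- sample 6, the library with most satellite counts. Of all genes 23.8% were lower in that fit, which is not a share of genes already called. How many of all the genes that were lower with every sample stayed lower without sample 6 was not counted. Mmp13-/- samples 1 and 2 still held 5.54% and 9.75% satellite counts, so this fit cannot tell genotype and library make-up apart. Levels in WT per kilobase of exon spanned from Ctnnb1 through Dvl1 at 1010 ± 80.8, Tnks2 at 765 ± 32.8, Csnk1g2 at 682 ± 40.5, Csnk1a1 at 618 ± 37.2, Csnk1d at 581 ± 18.8 and Gsk3a at 565 ± 45.1 down to Lef1 at 22.5 ± 1.68 and Cxxc4 (normalized counts per kilobase, SD, n = 3). Neighbours from Csnk1g2 to Gsk3a in this order lay within about 2 SD of each other. In Mmp13-/- the levels per kilobase of exon were 2470 ± 347 for Ctnnb1, 644 ± 118 for Csnk1a1, 485 ± 104 for Tnks2, 392 ± 66.7 for Wls, 368 ± 32.6 for Csnk1d and 349 ± 61.7 for Dvl1. The last 3 of these lay within 1 SD of each other.

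Because scaling between libraries cancels within a family, the share of each paralogue in the summed level of its family per kilobase of exon was also compared. In WT, Gsk3a made up 57.7% ± 1.46 (SD, n = 3) of the GSK3 level and in Mmp13-/- 45.2% ± 1.71. Tcf7l1 went from 37.6% ± 0.249 to 25.0% ± 1.65 of the TCF/LEF level, and Csnk1g2 from 29.3% ± 1.23 to 16.8% ± 0.494 of the casein kinase 1 level. The largest gain in that family was that of Csnk1a1, from 26.6% ± 1.92 to 38.2% ± 1.99. Dvl1 went from 68.3% ± 0.99 to 60.7% ± 2.23 of the Dishevelled level, Tnks from 17.1% ± 1.49 to 27.0% ± 1.18 of the tankyrase level, Nkd1 from 40.9% ± 2.58 to 31.6% ± 4.98 of the Nkd level and Pygo1 from 29.4% ± 4.83 to 42.0% ± 4.83 of the Pygopus level. Apc went from 78.7% ± 1.57 to 88.5% ± 3.96 of the Apc level and Bcl9 from 22.4% ± 1.67 to 33.2% ± 3.24 of the Bcl9 level. With the GC correction these 2 differences were -3.63 and 6.09 percentage points. Genotypes did not overlap for any of the shares named, nor for most of the 23 compared. Overlap was seen only for Dvl3, Frat1, Btrc, Tcf7l2 and Rnf43. With 3 against 3 samples the 2-sided exact permutation test gives no p under 0.1, which is 0.128 after Benjamini-Hochberg adjustment over the 23 shares compared, so no share can pass. The GC correction turned the difference for Gsk3a from -12.4 to 7.65 percentage points, for Csnk1a1 from 11.6 to -3.50 and for Pygo1 from 12.6 to -7.27. It left that of Tnks at 12.8, of Nkd1 at -9.51 and of Dvl1 at -4.24, and brought that of Tcf7l1 to -1.14 and of Csnk1g2 to -2.83.

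**Figure D5:**
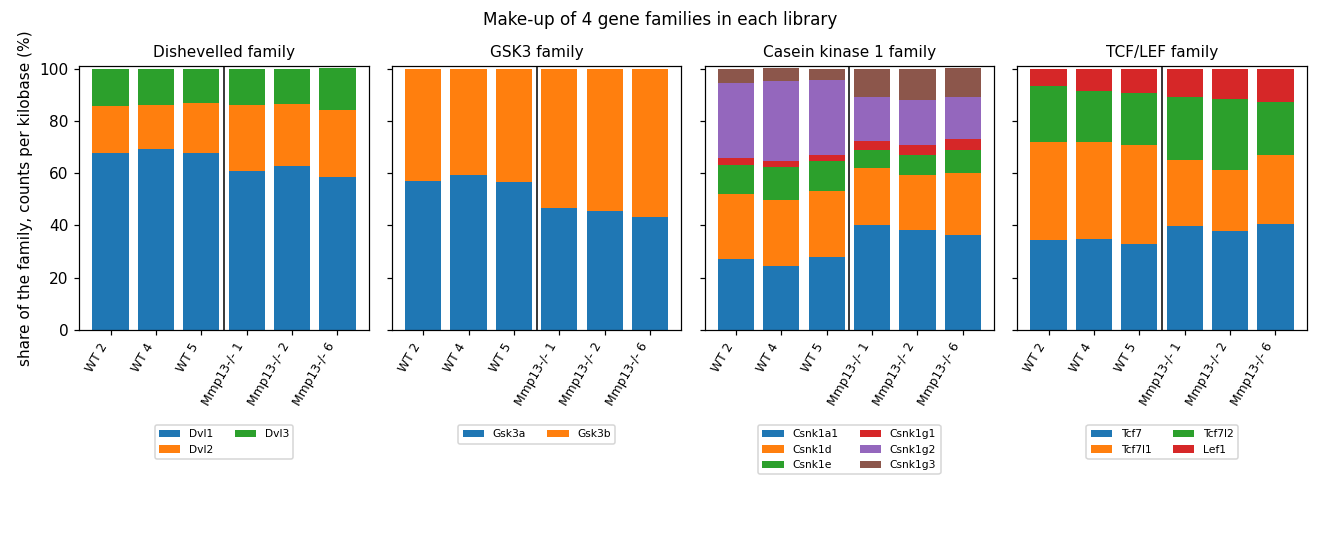
Share of each paralogue in the summed level of its family (percent, counts per kilobase of exon, bars starting at 0) in the 3 WT and 3 Mmp13-/- libraries for the Dishevelled, GSK3, casein kinase 1 and TCF/LEF families. Gsk3a, Tcf7l1 and Csnk1g2 take smaller shares in every Mmp13-/- library, and Csnk1a1, Csnk1g3 and Lef1 larger ones. These shares are without the GC correction, which turned the sign of the difference for Gsk3a, Csnk1a1 and Lef1.

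Of the 34 pairs of paralogues, 9 had log2 fold changes that differed by over 1. They were Apc and Apc2 (1.09), Tcf7l1 and Lef1 (-1.13), and 7 pairs of casein kinases 1, of which Csnk1g2 and Csnk1g3, at -1.27 and 0.74, lay farthest apart. All 9 pairs joined genes that differed by over 10 percentage points in GC content. After the GC correction the difference turned to -0.38 for Apc and Apc2, became 0.00 for Tcf7l1 and Lef1 and -0.69 for Csnk1g2 and Csnk1g3, and in 10 of the 34 pairs it changed sign. Several pairs of similar GC content changed little, although Dvl1 and Dvl3 went from -0.21 to 0.10. Csnk1a1 and Csnk1g3, nearly equal in GC content, differed by -0.68 without and with the correction, Nkd1 and Nkd2 by -0.58 and -0.59, Axin1 and Axin2 by 0.47 and 0.63, and Tnks and Tnks2 by 0.84 and 1.09. The tankyrases were the only pair over 1 after the correction.

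Other genes of the pathway were counted in the same way. Of 39 further intracellular genes, 17 fell and 6 rose, with a median log2 fold change of -0.29, beside 24.3% lower and 27.3% higher over all genes. Aes, a short relative of the Groucho corepressors, went from 8250 ± 352 normalized counts (SD, n = 3) to 3010 ± 562, and Tle3 from 3960 ± 251 to 1970 ± 145. Usp34, a deubiquitinase that acts on Axin, rose from 3389, 2896 and 3083 to 6587, 6690 and 4660, and Cul1, the scaffold of the ligase that contains Btrc, from 1190 ± 220 to 2070 ± 284. Of 21 canonical target genes, 18 were tested, of which 6 fell and 6 rose, with a median of -0.26 that was 0.38 under the GC correction with equal medians. Ppard and Jun fell, at -1.49 (adjusted p = 9.35e-05, edgeR) and -1.25 (adjusted p = 0.000459, edgeR), and Wisp1 rose from 3330 ± 610 to 6920 ± 1120 (adjusted p = 0.00171, edgeR). T, the Brachyury gene, had 1.87, 0 and 0 normalized counts in WT and 17.3, 12.3 and 28.2 in Mmp13-/-, so that no fold is given. After subtraction of the receptor gene background 17 target genes were tested, of which 5 fell and 5 rose, and the highest log2 fold change was 1.22. Axin2, Nkd1, Rnf43, Lef1 and Tcf7, which the pathway is also known to induce, are counted among the members. Axin2, Nkd1 and Rnf43 fell, but Rnf43 did not pass after the GC correction, at -0.08. Lef1 at 0.00 and Tcf7 at -0.33 did not pass. Of 15 receptors and co-receptors, 9 fell and 1 rose, with a median of -0.58. Fzd2, a Wnt receptor, was at -1.29 (adjusted p = 0.000171, edgeR), the co-receptor Lrp5 at -1.10 (adjusted p = 0.000233, edgeR), and Fzd3 rose from 393 ± 147 to 1030 ± 146, a log2 fold change of 1.39 (adjusted p = 0.00135, edgeR).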

How the data were processed

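RNA from dental pulp was sequenced by the authors as paired reads and processed in Strand NGS, and the submitters' processing notes name DESeq and mm10. Aligner settings and the annotation release are not given in the sources used here. The authors deposited, for 53342 genes, an estimated count, which carries fractions in 90.8% of values above 0, and a normalized value on the log2 scale. The deposited log2 values were recomputed from the counts, with a difference of at most 1.19e-06 at the 99.9th percentile. Reads shared by close paralogues may be split between them, and strand is not stated, so that a gene and an antisense partner cannot be told apart.

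Rounded estimated counts entered edgeR 4.0.16 under R 4.3.3 (quasi-likelihood test, TMM factors, filter on low counts by genotype, no covariates, Benjamini-Hochberg adjustment over 24534 genes). A call needed an adjusted p under 0.05, and a change over 2-fold where stated. Normalized counts are counts over the TMM-scaled library size, times the mean total of 27098730, and 3 counts are at most 4.71 on this scale. This floor covers counting error only. The SD is over 3 samples. P-values measure the spread between these samples.

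GC content and exon length came from GENCODE M21 (GRCm38), matched for 99.8% of genes. Trends with GC content were fitted per library by loess (span 0.4, genes with a mean log2 CPM above 3) and used as offsets. Satellite genes are 13 genes that match the 234-base tandem repeat, and the background rate is over 1736 odorant and vomeronasal receptor genes. Alternatives were other factors, other filters, DESeq2 1.42.0, limma 3.58.1 on the deposited values, voom with sample weights, an unmoderated equal-variance test with Storey's q on the deposited values (after the study's description as far as it is stated, with no filter on low values), background subtraction and each sample left out. Chosen after seeing the data were the GC correction without Mmp13-/- sample 6 and that with equal medians. Scripts were tested on simulated data.

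The members, gene lists and tests were chosen with earlier results of these data known. Named are all 40 members, the targeted gene, and from each other pathway list the 2 genes per direction with the smallest adjusted p. Values in every sample are given for members past 2-fold and for Ctnnb1, Gsk3b, Axin1, Dvl1 and the TCF/LEF factors, and pairs of paralogues are named where their log2 fold changes differ by over 1. Pairs of like GC content, Wls, and the nerve gene Scn10a were added after their values were seen. Reads, protein sequences and the authors' own comparisons were not used here.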

Additional observations from a re-analysis of the deposited data

How the results depend on the processing

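No paired analysis was possible because the genotypes share only replicate number 2. Depth, 3 samples a genotype and a composition that differed between genotypes limit these results, and the level of the GC correction decides most calls. With each library left out in turn the median log2 fold change of the members lay between -0.86 and -0.69 and 25 or 26 fell. Counts of members called lower, 25, were 16 with total counts and 11 with the GC correction at equal medians (14 called in all), and 22 to 27 under every other setting. Of all genes, 24.3% were called lower without the GC correction, 23.1% with the level kept and 10.9% with equal medians. Members called higher, 3, were 6 with upper-quartile factors, 0 with the GC correction and 1 with it and without Mmp13-/- sample 6. Over 2-fold, 16 members became 5 with the GC correction, 2 with it and without sample 6, and 0 with equal medians. The median of the members, -0.74, was -0.53 with upper-quartile factors, -0.63 with total counts, -0.62 with at least 10 counts in every sample, -0.85 without a filter, -0.53 with the GC correction, -0.49 with it and without sample 6, and -0.19 with equal medians. The median of all genes, 0.10, was 0.32 with upper-quartile factors, 0.21 with total counts, 1.30 without a filter, -0.06 with the GC correction and 0.28 with equal medians. In all 21 settings 6 members fell, namely Dvl1, Dvl3, Axin2, Csnk1g2, Bcl9l and Nkd1. How many of all genes fell in every setting was not counted, so this number has no background.

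Over all genes, 12665 passed, and 19292 did without a filter and 22979 of 48613 genes with the unmoderated test and Storey's q, run on all genes with a count, which need not be the set the study tested. Over 2-fold these were 7381, against 4666 with at least 10 counts in every sample, 14325 without a filter, 15407 with the unmoderated test, 4852 with the GC correction and 4505 with it and without sample 6. The further intracellular genes called, 23, were 11 with total counts, and the receptors called, 10, were 6 with the GC correction at equal medians.

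Signs turned for 7 members that had not passed, for Cxxc4, which had risen, and, with equal medians, for some that had fallen. Apc was 0.15 with upper-quartile factors, 0.08 with total counts, 0.07 with at least 10 counts in every sample, 0.04 with voom, 0.09 after background subtraction, and -0.18 to 0.05 with libraries left out. Amer1 was 0.06 with upper-quartile factors, 0.01 with total counts, and -0.29 to 0.03 with libraries left out. Csnk1a1 was -0.02 with factors that leave out the satellite and most abundant genes, with limma and with the unmoderated test, -0.04 without a filter, -0.65 with the GC correction, -0.53 with it and without sample 6, -0.31 with equal medians, and -0.11 to 0.21 with libraries left out (-0.01 without WT sample 2, -0.03 without WT sample 4, -0.04 without Mmp13-/- sample 2). Lef1 was -0.07 with factors that leave out those genes and with voom, -0.11 without a filter, -0.05 with limma and with the unmoderated test, -0.38 with the GC correction, -0.46 with it and without sample 6, -0.03 with equal medians, -0.06 after background subtraction, and -0.11 to 0.04 with libraries left out (-0.10 without WT sample 2 or Mmp13-/- sample 2, -0.05 without sample 6). With the GC correction, and with it but without sample 6, Csnk1g1 was -0.24 and -0.19, Tnks -0.13 and -0.02, and Cxxc4 -0.22 and -0.65. With equal medians Dvl2 was 0.03, Axin1 0.07, Apc2 0.10, Csnk1d 0.04, Tcf7 0.21 and Rnf43 0.27. The cause of these turns was not tested.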
